A study of Homo sapiens with 4 samples.

Results

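Caspases are proteases that cut other proteins after aspartate and carry out or start apoptosis, the programmed death of a cell. The 8 genes described here are 6 caspase genes, CASP2, CASP4, CASP6, CASP8, CASP9 and CASP10, with APAF1, which activates caspase-9, and PARP1, a DNA repair enzyme that caspases cleave. They were taken by gene symbol from a table of 18398 gene rows, and each symbol had exactly 1 row. The study transfected Huh1 and Huh7 cells, 2 established human hepatocellular carcinoma (HCC) cell lines, with small interfering RNA (siRNA) and sequenced their RNA. CDCA8siRNA targets CDCA8, a component of the chromosomal passenger complex that guides chromosome segregation, and NCsiRNA is a negative control without an endogenous target. Both were used at 15 nM for 48 h, as the study's methods give it, and both arms received the same cationic lipid. There were 4 libraries, 1 for each cell line and siRNA, and the comparison asks how gene expression differed after CDCA8 silencing.

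Apoptosis is started along different routes. In the extrinsic route, death receptors gather caspase-8 and caspase-10 on the adaptor FADD. In the intrinsic route, cytochrome c leaves the mitochondria, binds APAF1 and forms the apoptosome, on which caspase-9 becomes active. Initiator caspases then switch on executioner caspases, which cut substrates such as lamins and PARP1. These proteins are made as inactive precursors or are regulated by cleavage, so the RNA level of a gene does not give the activity of its product.

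The values were taken to be RPKM, in which reads are divided by the length of the gene and by library depth. This puts levels of different genes on 1 scale. The lengths used are not given, so such comparisons between genes are approximate. The 4 libraries held an implied 12197606 to 13384836 reads, and 2568 to 3169 of the 18398 rows were at 0. CDCA8 was at 24.1 RPKM with NCsiRNA and 5.86 with CDCA8siRNA in Huh1, and at 51.5 and 7.36 in Huh7, so 24.3% and 14.3% of its level was left. Of the markers of the hepatocyte lineage, albumin (ALB) was at 3447 and 2684 RPKM in Huh1 and at 1166 and 721 in Huh7, in the order NCsiRNA and CDCA8siRNA, and HNF4A was at 86.1, 59.1, 55.4 and 38.8. With CDCA8siRNA, 5 of the 7 markers of this lineage were called lower in the limma fit described below, beside 2.65% of all genes. These were ALB (adjusted p = 0.0112), APOA1 (0.0167), APOB (0.00495), SERPINA1 (0.0183) and HNF4A (0.0146), and 0 of the 7 were called by limma without the trend. TTR and AFP were not called (adjusted p = 0.402 and 0.753 by limma). TTR was at 5.10 and 4.49 RPKM in Huh1 and rose from 29.3 to 48.5 in Huh7. Alpha-fetoprotein (AFP) was at 24.8 and 27.5 in the Huh1 libraries and at 865 and 715 in those of Huh7. The leukocyte markers PTPRC and CD3E were at most at 0.417 RPKM, but CD68 was at 3.71 to 23.3. The endothelial marker VWF was at most at 0.00923 RPKM, and PECAM1 had no row. COL1A1, a fibroblast marker, was at 0.115 and 0.122 RPKM in Huh1 and at 107 and 125 in Huh7. Of the other fibroblast markers, COL3A1 was at 1.89 and 4.14 RPKM in Huh7 and ACTA2 at 0.720 and 1.06. Both were at most at 0.0414 RPKM in Huh1. The part of these marker differences in the results below was not tested. With bulk RNA, a change in RNA per cell and a change in which cells were present cannot be told apart.

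The regions before 7 of the 8 genes were matched by symbol in the RefSeq table of promoters (GRCh38.p14), each from 250 bases before to 50 bases after an annotated start. The windows of 3 genes are shown because their RNA had the widest differences among the 8: CASP4 had the largest mean log2 difference with CDCA8siRNA over both lines, and CASP8 and APAF1 differed most between the lines, in opposite directions. The capitals mark GC boxes (GGGCGG on either strand), which Sp1 family factors bind, and the GAS motif (TTCNNNGAA), which STAT factors bind. CASP4 lies on the minus strand at chr11:104968525-104968824, CASP8 on the plus strand at chr2:201233213-201233512 and APAF1 on the plus strand at chr12:98645040-98645339, each written 5′ to 3′ of the gene.
CASP4: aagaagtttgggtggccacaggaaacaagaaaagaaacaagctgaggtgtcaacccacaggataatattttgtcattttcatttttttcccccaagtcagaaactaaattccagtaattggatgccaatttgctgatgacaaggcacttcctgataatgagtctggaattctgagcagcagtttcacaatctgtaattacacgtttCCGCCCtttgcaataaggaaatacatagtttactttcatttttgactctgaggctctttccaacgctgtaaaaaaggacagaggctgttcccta
CASP8: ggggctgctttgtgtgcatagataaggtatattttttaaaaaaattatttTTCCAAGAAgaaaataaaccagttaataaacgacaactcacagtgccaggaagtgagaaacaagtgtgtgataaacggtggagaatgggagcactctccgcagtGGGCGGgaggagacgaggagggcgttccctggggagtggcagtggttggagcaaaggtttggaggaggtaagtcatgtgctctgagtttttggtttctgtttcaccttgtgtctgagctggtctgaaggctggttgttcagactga
APAF1: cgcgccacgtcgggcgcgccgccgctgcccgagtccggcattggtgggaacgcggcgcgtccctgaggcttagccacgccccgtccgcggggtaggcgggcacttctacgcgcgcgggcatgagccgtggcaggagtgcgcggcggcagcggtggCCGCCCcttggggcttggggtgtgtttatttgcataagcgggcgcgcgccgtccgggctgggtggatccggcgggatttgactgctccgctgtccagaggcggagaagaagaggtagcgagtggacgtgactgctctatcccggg
The window of CASP4 had 39.7% G and C and 3 CpG dinucleotides, and that of CASP8 had 46.3% and 6. By contrast, the window of APAF1 had 71.3% and 42 CpG. Over all 35116 windows of the table the median was 58.7% G and C and 14 CpG. Each of the 3 windows held 1 GC box, which 45.0% of all windows hold, and that of CASP8 also held 1 GAS motif, which 7.66% hold. The first windows of CASP2, CASP6, CASP9 and PARP1 were also rich in G and C, at 71.3%, 72.0%, 76.0% and 70.0%, with 4, 3, 8 and 2 GC boxes. A further window of CASP9 held 9 GC boxes, while that of CASP2 and 2 of CASP8 held neither a GC box nor a GAS motif. No GC box overlapped a GAS motif. The E2F motif (TTTCCCGC or TTTGGCGC on either strand), in 2.27% of all windows, was in no window of the 7 genes. A match of letters is a description and does not show that a factor was bound.

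The genes differed widely in level. PARP1 was the highest of the 8 in all 4 libraries, between the percentiles 94.5 and 97.4 of all rows. CASP4, CASP2 and CASP6 were in the middle, at 16.9 to 39.7 RPKM. CASP9 and CASP10 were low, and CASP10 was the lowest in 3 of the 4 libraries. The place of CASP8 differed most. With NCsiRNA, only PARP1 and CASP4 were higher in Huh1, while in Huh7 CASP2, CASP6 and APAF1 were higher as well. Counting intervals of neighbours overlapped for CASP9 and APAF1 in Huh1 with NCsiRNA, and for CASP4 and CASP2 as well as CASP10 and CASP9 in Huh1 with CDCA8siRNA. They also overlapped for CASP8 and CASP9 in Huh7 with NCsiRNA, and for CASP6, CASP2 and APAF1, each with the next, in Huh7 with CDCA8siRNA. These intervals, and those below, are at 95% and cover counting error only, since no condition was repeated. They rest on rebuilt reads and are approximate for all of the 8 genes but CASP4 and CASP9.

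**Figure D1:**
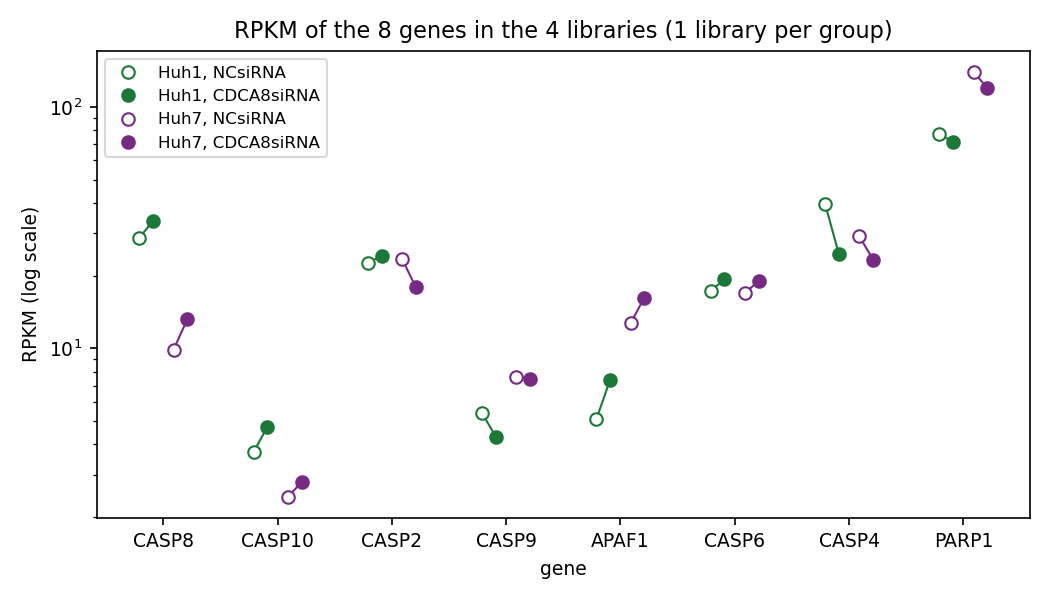
RPKM of the 8 genes on a log axis, with open points for NCsiRNA and filled points for CDCA8siRNA, green for Huh1 and purple for Huh7; each point is 1 library. PARP1 lies highest at 71.4 to 139 RPKM, and CASP8 is at 28.7 and 33.6 in Huh1 but at 9.86 and 13.2 in Huh7.

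After CDCA8 silencing, none of the 8 genes reached a 2-fold difference in either line on the scale of log2(RPKM + 1). At least 2-fold was reached by 0.494% of the 10940 genes with at least 1 RPKM in Huh1 and by 1.57% of 11565 in Huh7, so a count of 0 of 8 lies near the background. All 8 genes passed this filter in both lines. The log2 differences were above 0 for 5 of the 8 in Huh1 and for 4 of 8 in Huh7, with medians of 0.13 and 0.06, beside 0.02 and 0.03 over all genes. A fit of all 4 libraries (limma with the cell line as a term, Benjamini-Hochberg adjustment over 12148 genes) estimated the mean effect of CDCA8siRNA over the lines. It called 1 of the 8 genes, CASP4, which fell. The same fit called 2.65% of all genes lower and 3.74% higher with CDCA8siRNA. With 1 residual degree of freedom, the variance of a gene came from the difference between its responses in Huh1 and Huh7. limma moderated this variance toward a trend over all genes, with 7.48 prior degrees of freedom. The p-values therefore rest largely on that trend and do not measure the spread between repeated transfections. At an unadjusted p under 0.05 there were 3 of the 8, CASP4, CASP8 and APAF1, beside 22.8% of all genes (2767 of 12148).

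CASP4 encodes an inflammatory caspase that senses bacterial lipopolysaccharide in the cytosol and cleaves gasdermin D. Its row is that of NM_001225, a gene on chromosome 11 at 104942866 to 104969436 of GRCh38, minus strand. It was at 39.7 RPKM in Huh1 with NCsiRNA and 24.7 with CDCA8siRNA, and at 29.1 and 23.3 RPKM in Huh7. Both CDCA8siRNA libraries were therefore below both NCsiRNA libraries. The RPKM ratio was 0.622 (counting interval 0.570 to 0.677) in Huh1 and 0.801 (0.727 to 0.883) in Huh7, and these intervals do not overlap. Its log2 difference in Huh1 was -0.66, which 2.48% of the genes tested there exceeded in size. In Huh7 it was -0.31, which 30.0% of genes exceeded. Over both lines CASP4 fell by 0.49 (SE 0.111, adjusted p = 0.0392 by limma). This call was lost with limma without the trend (adjusted p = 0.122), without a filter on low values (0.448) and without the cell line term (1.00), and it held in the other 5 of 8 alternatives, with a lowest adjusted p of 0.00632.

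The genes whose pattern over the 4 libraries lay nearest to that of CASP4, of 12140 compared, were ITGAL, DHRS13 and FAM160B1. Nearness was the Euclidean distance of log2(RPKM + 1) after centring each gene, and it was 0.0697, 0.0886 and 0.0903. FAM160B1 was at 18.6 and 11.5 RPKM in Huh1 and 13.5 and 9.94 in Huh7. ITGAL, an integrin subunit of leukocytes, was at 1.45 and 0.486 RPKM in Huh1 and 0.793 and 0.378 in Huh7, a level near the filter. At such a level log2(RPKM + 1) understates changes, and the RPKM of ITGAL fell by a larger share than that of CASP4 in each line.

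CASP8 and CASP10 encode the initiators of the extrinsic route and are neighbours on the plus strand of chromosome 2, at 201233443 to 201287711 and 201182881 to 201229406 of GRCh38. CASP8 (NM_001228) was at 28.7 RPKM with NCsiRNA and 33.6 with CDCA8siRNA in Huh1, and at 9.86 and 13.2 in Huh7. The CDCA8siRNA library was the higher in each line, and the lines did not overlap. The RPKM ratio was 1.17 (counting interval 1.06 to 1.30) in Huh1 and 1.34 (1.12 to 1.59) in Huh7. Over both lines the log2 fold change was 0.30 (SE 0.101), which did not pass (adjusted p = 0.117 by limma).

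CASP10 (NM_001230) was at 3.72 and 4.72 RPKM in Huh1 and at 2.43 and 2.78 in Huh7, in the order NCsiRNA and CDCA8siRNA. Again the CDCA8siRNA library was the higher in each line, with a ratio of 1.27 (1.05 to 1.54) in Huh1. In Huh7 the ratio was 1.14 with an interval of 0.889 to 1.49, which holds 1. The fit over both lines gave a log2 fold change of 0.21 (adjusted p = 0.393 by limma). CFLAR, the gene beside CASP10, encodes the inhibitor c-FLIP that competes with caspase-8 for FADD. It was at 7.94 and 9.20 RPKM in Huh1 and 5.17 and 7.17 in Huh7. The RPKM ratio of CASP8 to CFLAR within a library was 3.61 and 3.66 in Huh1 and 1.91 and 1.84 in Huh7, so it differed between the lines and hardly between the siRNAs.

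CASP2 (NM_032982, chromosome 7, 143288215 to 143307696, plus strand) encodes an initiator that the PIDDosome activates, among others after failed cell division. It was at 22.5 RPKM with NCsiRNA and 24.2 with CDCA8siRNA in Huh1. In Huh7 it was at 23.4 and 17.9 RPKM. The control levels were therefore alike in the lines, and the CDCA8siRNA library was the lowest of the 4 in Huh7 and the highest in Huh1. The ratio was 1.07 (counting interval 0.992 to 1.16) in Huh1 and 0.764 (0.700 to 0.833) in Huh7. Of the 8 genes, only CASP2 had log2 differences of opposite sign in the lines, and only CASP2 and CASP4 had counting intervals that did not overlap between the lines, beside 19.5% of 10041 genes. Its fold change over both lines did not pass (adjusted p = 0.560 by limma). PIDD1, the scaffold of the PIDDosome, was at 2.58 and 2.60 RPKM in Huh1 and 2.81 and 2.93 in Huh7. CRADD, its adaptor, was at 8.24 and 9.89 RPKM in Huh1 and 6.97 and 3.91 in Huh7.

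The genes of the apoptosome are APAF1 and CASP9. APAF1 (chromosome 12, 98645141 to 98735433, plus strand) was at 5.10 RPKM with NCsiRNA and 7.41 with CDCA8siRNA in Huh1. It was at 12.7 and 16.2 RPKM in Huh7. The CDCA8siRNA library was the higher in each line, by a ratio of 1.45 (1.25 to 1.69) in Huh1 and 1.27 (1.15 to 1.41) in Huh7. In Huh1 this was the highest ratio of the 8 genes, and in Huh7 only that of CASP8 was higher. Over both lines the log2 fold change was 0.39 (SE 0.109), and with an adjusted p of 0.0698 by limma it did not pass, nor did it in any alternative (lowest adjusted p 0.0523). The row of APAF1 carries NM_181869, a transcript of 8 exons in the annotation used. Whether its value covers this transcript alone or all exons of the gene is not given. Of the transcript's 4539 bases, 743 (16.4%) overlap exons of ANKS1B on the opposite strand. The kit named in the labels does not mark strand, so reads from the pair cannot be told apart there. ANKS1B was at 0.123 and 0.390 RPKM in Huh1 and 2.20 and 2.22 in Huh7.

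CASP9 (NM_001229, chromosome 1, 15490832 to 15526534, minus strand) was at 5.38 and 4.31 RPKM in Huh1 and at 7.57 and 7.49 in Huh7. Its ratio was 0.800 in Huh1 (0.626 to 1.02) and 0.989 in Huh7 (0.809 to 1.21), so both counting intervals hold 1. The reads behind these values were 156 and 123 in Huh1 and 200 and 199 in Huh7. The fit over both lines gave a log2 fold change of -0.14 (adjusted p = 0.542 by limma). Within a library, the RPKM ratio of APAF1 to CASP9 was 0.947 and 1.72 in Huh1 and 1.68 and 2.16 in Huh7. It was higher with CDCA8siRNA in each line.

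CASP6 (NM_001226, chromosome 4, 109688622 to 109703583, minus strand) encodes an executioner caspase that cleaves lamin A. It was at 17.2 RPKM with NCsiRNA and 19.4 with CDCA8siRNA in Huh1, and at 16.9 and 19.0 in Huh7. The lines were nearly alike, with a ratio of 1.12 in each and counting intervals of 0.970 to 1.30 and 0.965 to 1.31. The fit gave a log2 fold change of 0.16 (adjusted p = 0.381 by limma).

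PARP1 encodes poly(ADP-ribose) polymerase 1, which marks DNA breaks with chains of ADP-ribose and is cleaved during apoptosis. Its row is NM_001618, on chromosome 1 at 226360691 to 226408079, minus strand. It was at 77.2 RPKM with NCsiRNA and 71.4 with CDCA8siRNA in Huh1, and at 139 and 120 in Huh7. The CDCA8siRNA library was the lower in each line, by a ratio of 0.925 (0.884 to 0.967) in Huh1 and 0.858 (0.828 to 0.889) in Huh7. These intervals are the narrowest of the 8, because the gene had the most reads, up to 6730 in a library. Over both lines the log2 fold change was -0.17 (SE 0.0822), which did not pass (adjusted p = 0.278 by limma). The ratio of PARP1 to PARP2, a paralog with a like function in repair, was 2.48 and 2.49 in Huh1 and 2.72 and 2.39 in Huh7.

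**Figure D2:**
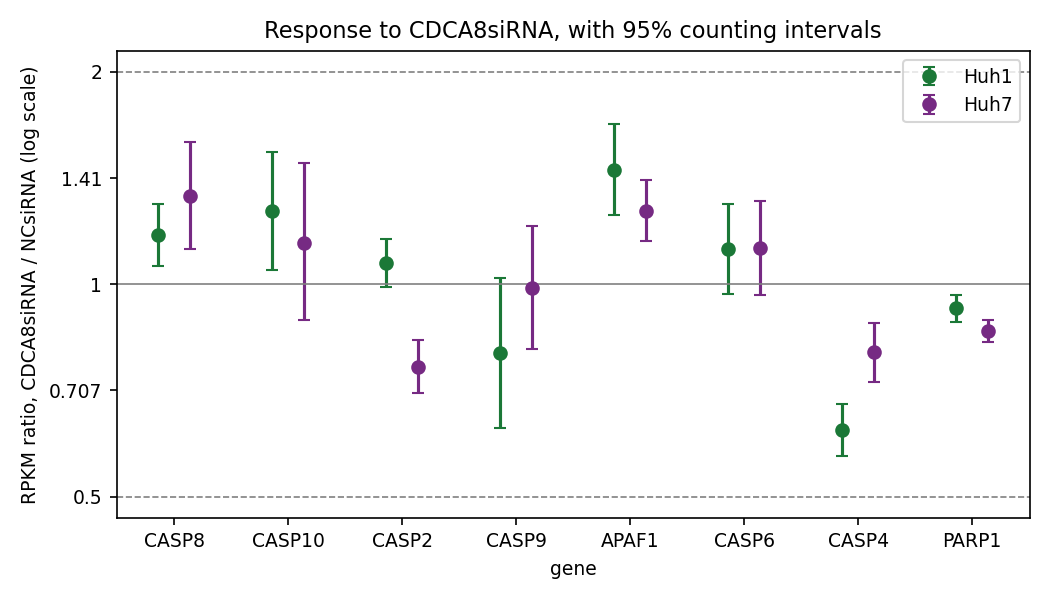
RPKM ratio of CDCA8siRNA to NCsiRNA for the 8 genes in Huh1 (green) and Huh7 (purple) on a log axis, with 95% counting intervals as bars, a solid line at 1 and dashed lines at 2-fold. All 16 points lie within the dashed lines, the lowest being CASP4 in Huh1 at 0.622 and the highest APAF1 in Huh1 at 1.45.

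The counting interval of the ratio lay above 1 for 3 of the 8 genes in Huh1 (CASP8, CASP10 and APAF1) and for 2 in Huh7 (CASP8 and APAF1), beside 25.6% and 29.8% of all genes with such an interval. It lay below 1 for 2 genes in Huh1 (CASP4 and PARP1) and for 3 in Huh7 (CASP2, CASP4 and PARP1), beside 17.9% and 23.5%. Of the 8 genes, 7 had log2 differences of the same sign in both lines, as had 69.4% of the 10357 genes over the filter in both. No test was made of these counts of 8 against those shares.

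**Figure D3:**
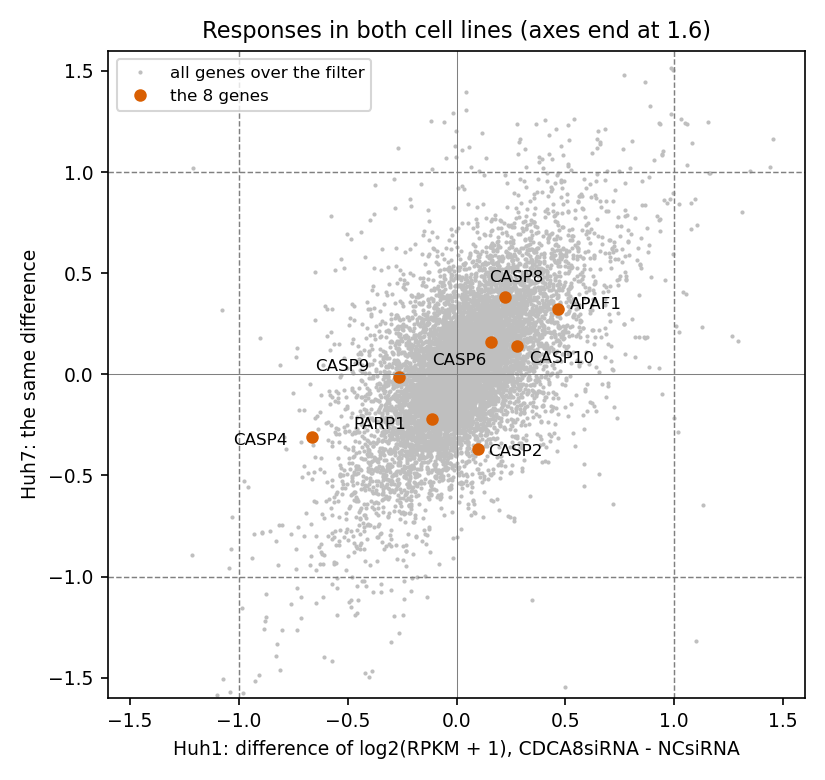
Difference of log2(RPKM + 1) between CDCA8siRNA and NCsiRNA in Huh1 (x axis) and Huh7 (y axis), with 1 grey point per gene over the filter in both lines and the 8 genes in orange; dashed lines mark 2-fold. CASP4 lies outermost to the left at -0.66 and -0.31, and CASP2 is the only gene of the 8 to the lower right of the origin, at 0.10 and -0.37.

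For several of the 8 genes, Huh1 and Huh7 stood further apart than the siRNAs within a line. The same limma fit, with the siRNA as the other term, called 5 of them. Higher in Huh7 were APAF1, PARP1 and CASP9, and higher in Huh1 were CASP8 and CASP10. Of all genes it called 42.5% higher in Huh7 and 28.7% higher in Huh1, so 5 of 8 is near the background, and the sizes are given for the single genes. The libraries of a line are not replicates, since they differ in siRNA, and any difference in handling between the lines cannot be told apart from the line itself.

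CASP8 had the widest difference, with a Huh7 to Huh1 ratio of 0.344 (counting interval 0.295 to 0.399) with NCsiRNA and 0.391 (0.343 to 0.447) with CDCA8siRNA. Its log2 fold change between the lines was -1.37 (SE 0.101, adjusted p = 4.46e-06 by limma). CASP10 had ratios of 0.654 and 0.590, a log2 fold change of -0.53 and an adjusted p of 0.00616. Thus both neighbouring initiator genes, and CFLAR beside them (-0.43, adjusted p = 0.00969), were lower in Huh7.

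Both genes of the apoptosome were higher in Huh7. APAF1 had a Huh7 to Huh1 ratio of 2.50 (2.18 to 2.87) with NCsiRNA and 2.19 (1.95 to 2.46) with CDCA8siRNA, and a log2 fold change of 1.10 (SE 0.109, adjusted p = 2.65e-05 by limma). CASP9 had ratios of 1.41 and 1.74 and a log2 fold change of 0.55 (adjusted p = 0.00329). PARP1 had ratios of 1.81 and 1.68 and a log2 fold change of 0.79 (SE 0.0822, adjusted p = 3.68e-05). With NCsiRNA, 2 of the 8 genes, CASP8 and APAF1, differed by more than 2-fold in RPKM between the lines, beside 33.9% of 11896 genes. Without a filter on low values, the calls of CASP9 and CASP10 were lost (adjusted p = 0.0939 and 0.0835).

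CASP2, CASP4 and CASP6 were not called between the lines. CASP6 had ratios of 0.982 (0.843 to 1.15) and 0.984 (0.852 to 1.14). CASP4 was lower in Huh7 with NCsiRNA (0.733, interval 0.674 to 0.796), whereas with CDCA8siRNA the ratio was 0.944 with an interval of 0.855 to 1.04. Its adjusted p was 0.0645, and it became 0.00923 with quantile normalization and 0.0342 with upper quartile scaling. CASP2 had a ratio of 1.04 with NCsiRNA and 0.741 with CDCA8siRNA, and an adjusted p of 0.227, or 0.0468 with quantile normalization.

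**Figure D4:**
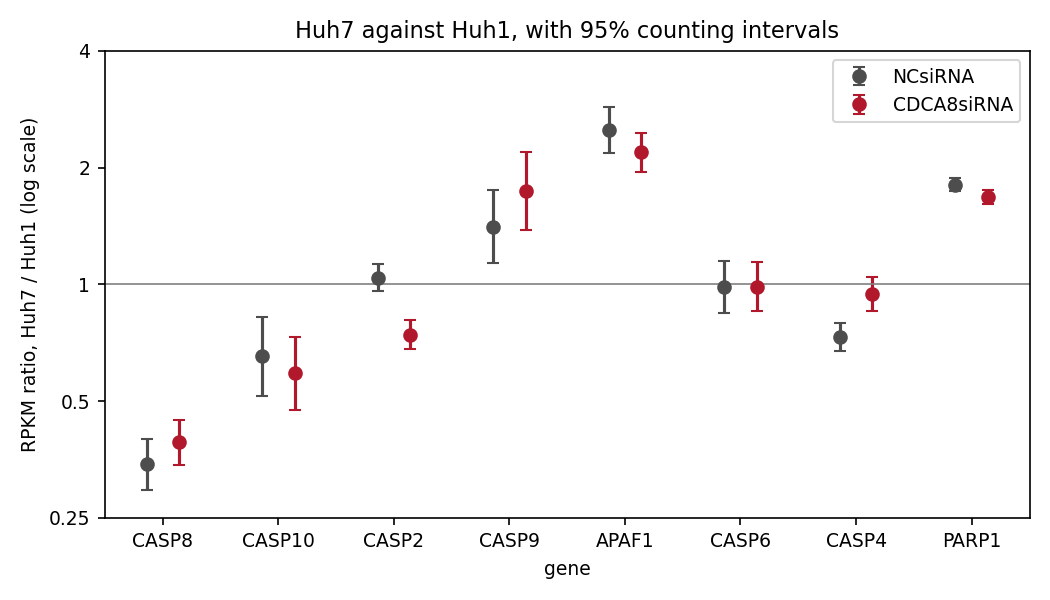
RPKM ratio of Huh7 to Huh1 for the 8 genes with NCsiRNA (grey) and CDCA8siRNA (red) on a log axis, with 95% counting intervals as bars and a line at 1. CASP8 lies lowest at 0.344 and 0.391, APAF1 highest at 2.50 and 2.19, and CASP6 at 0.982 and 0.984.

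The rest of the pathway was followed with 6 lists of 55 genes in all, of which 54 had a row and 46 passed the filter of the fit. The fit called 2 of these 46 with CDCA8siRNA, 1 higher and 1 lower, beside 3.74% and 2.65% of all genes, so the count is near the background. CYCS, which encodes cytochrome c, the ligand of APAF1, was at 57.4 and 75.5 RPKM in Huh1 and 66.0 and 89.4 in Huh7, and rose by a log2 fold change of 0.41 (adjusted p = 0.0279 by limma). It was the only gene called of 5 apoptosome and mitochondrial factors. LMNB1, which encodes lamin B1, a caspase substrate of the nuclear envelope, was at 51.6 and 23.5 RPKM in Huh1 and 63.2 and 20.4 in Huh7. It fell by 1.34 on the log2 scale (adjusted p = 0.00220), and it was the only gene of the 6 lists past 2-fold in either line on the log2(RPKM + 1) scale. Both calls were lost without a filter on low values and without the cell line term. By limma without the trend, that of CYCS was also lost (adjusted p = 0.116), and that of LMNB1 was just under the threshold (0.0499). LMNA, the substrate of caspase-6, was at 107 and 122 RPKM in Huh1 and 96.9 and 144 in Huh7 and did not pass (adjusted p = 0.0623 by limma). It had the highest mean of the 8 substrate genes, but SPTAN1, at 149 and 148 RPKM, was above it in Huh7.

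In the other 4 lists no gene was called with CDCA8siRNA. Of the inhibitors of apoptosis, 5 of 6 passed the filter, and that with the highest mean, BIRC2 (cIAP1), was at 21.1 and 21.4 RPKM in Huh1 and 15.4 and 21.7 in Huh7. BIRC3 (cIAP2) was at 2.13 and 2.18 RPKM in Huh1 and at 4.10 and 8.74 in Huh7, an RPKM ratio of 2.13 (1.81 to 2.52) there that is under 2-fold on the log2(RPKM + 1) scale, at 0.93. Of 13 death receptors and adaptors, 11 passed, and that with the highest mean over the 4 libraries, TNFRSF1A, the receptor of tumour necrosis factor, was at 72.0 and 62.8 RPKM in Huh1 and 19.9 and 18.0 in Huh7. FAS was at most at 0.285 RPKM in any library. IL18, with the highest mean of the 7 inflammasome partners over the filter, is a cytokine that inflammatory caspases process. It was at 49.6 and 91.0 RPKM in Huh1 and 64.0 and 72.9 in Huh7 (adjusted p = 0.0677 by limma). PYCARD, the adaptor of inflammasomes, was at 6.57 RPKM in Huh1 with NCsiRNA, with an RPKM ratio of 0.761 (0.519 to 1.11), and at 1.59 and 0.422 in Huh7. Its RPKM ratio in Huh7 was 0.265 (0.0641 to 0.832) and its log2(RPKM + 1) difference -0.87. Of 10 PARP1 partners, that with the highest mean was CHD1L, a chromatin remodeller recruited by ADP-ribose chains, at 68.9 and 70.0 RPKM in Huh1 and 26.5 and 26.0 in Huh7, where PARP2 was higher at 51.2 and 50.1.

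Between the lines, 33 of the 46 genes were called, 19 higher in Huh7 and 14 higher in Huh1, a count near the background of 42.5% and 28.7% of all genes. TNFRSF1A was lower in Huh7 like CASP8 (log2 fold change -1.78, adjusted p = 4.93e-07 by limma). FADD, the adaptor of CASP8, was at 11.4 and 14.7 RPKM in Huh1 and 20.8 and 22.2 in Huh7, and was higher in Huh7 (0.69, adjusted p = 4.57e-04). TNFRSF10B, a receptor of TRAIL, was also higher in Huh7, at 29.3 and 38.3 RPKM beside 8.75 and 8.32 (1.86, adjusted p = 2.47e-06). FADD and TNFRSF10B were the only 2 of the 11 death receptors and adaptors over the filter called higher in Huh7, while 5 were called lower. The genes of the extrinsic route therefore did not all differ in 1 direction between the lines. The same held for the apoptosome and mitochondrial factors, of which CYCS (0.22, adjusted p = 0.0403) and DIABLO (0.60, adjusted p = 6.38e-04) were higher in Huh7 and ENDOG (-0.82, adjusted p = 7.84e-05) and HTRA2 (-0.33, adjusted p = 0.0367) were lower by limma. FADD, TNFRSF10B, CFLAR, FAS, PIDD1, CRADD, PARP2, BIRC3, PYCARD, DIABLO, ENDOG, HTRA2 and SPTAN1 were named after their values had been seen.

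**Figure D5:**
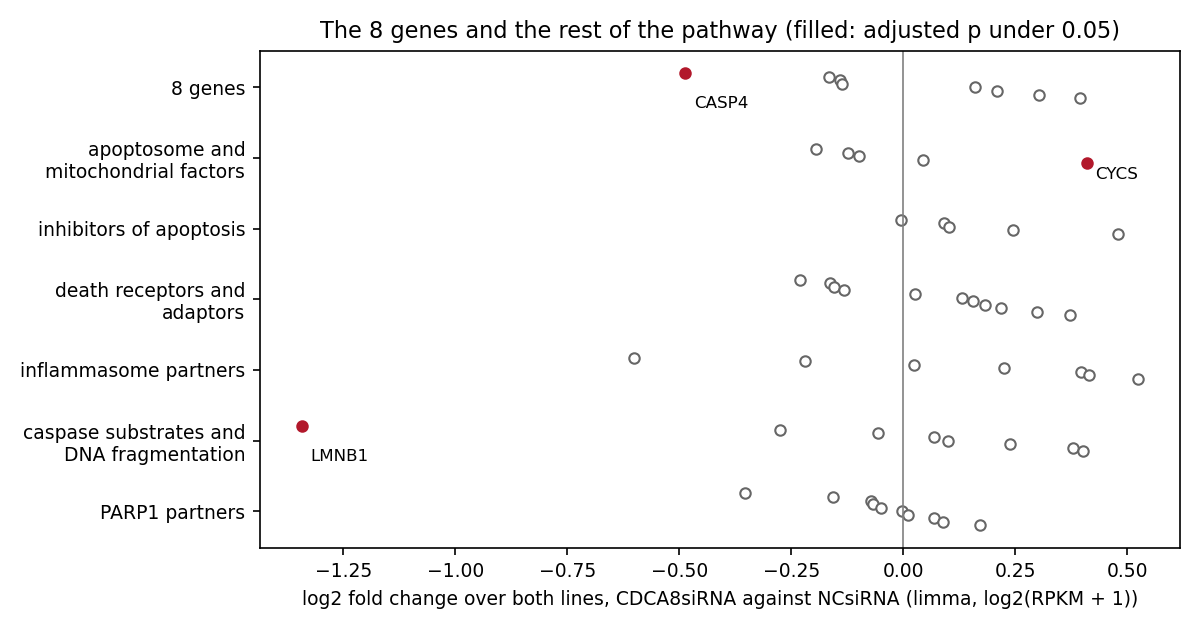
Log2 fold change with CDCA8siRNA over both lines (limma on log2(RPKM + 1)) for the 8 genes and the genes of 6 pathway lists, 1 point per gene, filled where the adjusted p was under 0.05. The filled points are CASP4 at -0.49, CYCS at 0.41 and LMNB1 at -1.34.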

How the data were processed

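Groups were taken from the sample titles, and the dose and time from the study's methods. The authors deposited 1 RPKM value per gene row and library without naming the unit, which was deduced from the values: multiplied by length, low values fell on whole multiples of 1 constant per library. The submitters' processing notes name CASAVA 1.8.2, TopHat2 2.0.9 and hg19 without their roles; the counter and annotation are not given in the sources used here. Positions and lengths came from GENCODE release 29 (GRCh38), and promoter windows from RefSeq (GRCh38.p14), so no hg19 coordinate is printed.

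Differences were taken on log2(RPKM + 1), which understates changes of low genes, and genes under 1 RPKM in every library compared were left out. Levels are therefore not counts, and no p-value was taken from a count test. The counting intervals, by contrast, rest on rebuilt reads. In Python 3.11.15 (scipy 1.17.1), reads behind a value were rebuilt from RPKM, length and depth. For CASP4 and CASP9 a length was found (2638 and 2165 nt, scanned from 300 to 15000 nt) at which all 4 values were whole reads within 0.001. These are longer than the GENCODE transcripts (2158 and 2019 nt), and whether a value covers the labelled transcript or all exons of its gene is not given, so the overlap with ANKS1B holds for the labelled transcript of APAF1. For the other 6 genes none was found, the GENCODE length was used, and their reads and 95% intervals are approximate, as are the shares of intervals over all genes. Intervals of ratios were of the Clopper-Pearson kind, and those of levels within a library were Poisson intervals. limma 3.58.1 in R 4.3.3 was fitted with a mean-variance trend, cell line and siRNA as terms and Benjamini-Hochberg adjustment over 12148 genes, with calls under 0.05. The script was tested on simulated data with known changes. There both lines had the same mean levels and the same changes, so this does not show how the fit performs where the lines differ.

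The members and lists were chosen with earlier results of these data known. Named were all 8 genes, CDCA8, list genes past 2-fold or called with an absolute log2 fold change of at least 0.5, the highest gene of each list, and the 3 genes nearest to the member with the largest mean response. A further list, of other caspases, is not reported here. Alternatives were other pseudocounts, filters and scalings, and limma without the trend or without the second term.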

Additional observations from a re-analysis of the deposited data

Results flagged for a closer look

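CASP2 had log2 differences of opposite sign in the cell lines, 0.10 in Huh1 and -0.37 in Huh7. The counting interval of its RPKM ratio was 0.992 to 1.16 in Huh1, which holds 1, and 0.700 to 0.833 in Huh7. The difference in Huh7 minus that in Huh1 was -0.467 on the log2(RPKM + 1) scale. With 1 library per condition, neither this difference nor those that follow were tested.

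Other genes named above or among the hepatocyte markers also had opposite signs, while 69.4% of 10357 genes over the filter in both lines had the same sign. For all genes listed here but TTR, the counting interval of the RPKM ratio held 1 in at least 1 of the lines. CRADD, the adaptor that links PIDD1 to caspase-2, had 0.24 in Huh1 and -0.70 in Huh7, a difference of -0.936. TNFRSF10B had -0.06 and 0.38, a difference of 0.441. HTRA2 had -0.10 and 0.19, a difference of 0.295. The substrate gene SPTAN1 had 0.21 and -0.004, a difference of -0.209. CHD1L, a partner of PARP1, had 0.02 and -0.03, a difference of -0.049. Of the markers, AFP had 0.14 and -0.27, a difference of -0.414, and TTR had -0.15 and 0.71, a difference of 0.857. CD68 had -0.47 and 0.007, a difference of 0.481.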

How the results depend on the processing

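No paired analysis was possible because the groups share fewer than 2 replicate numbers; the cell line term of the siRNA fit pairs the libraries by line. With 1 library per condition, leaving out a library leaves no residual degree of freedom. None of the values for a single gene changed sign. Within the lines, 94 of 94 alternative values of the 8 genes stayed on their side of 2-fold. In the siRNA fit 60 of 63 stayed on their side of the threshold and CASP4 lost its call in 3, while in the line fit 58 of 63 stayed, 2 calls were lost and 3 gained. The causes were not tested.

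A pseudocount of 0.1 RPKM gave 164 genes past 2-fold in Huh1 and 422 in Huh7, beside 54 and 182, and 3 in place of 1 of the pathway genes in Huh7 (LMNB1, BIRC3 and PYCARD). In the siRNA fit, which called 776 genes, 1 of the 8 and 2 pathway genes, no filter on low values gave 0, 0 and 0 and no cell line term also gave 0, 0 and 0 by limma, with 75 genes at an unadjusted p under 0.05 in the latter. Without the trend, 45 genes, 0 of the 8 and 1 pathway gene were called. Quantile normalization gave 1260 genes and 6 pathway genes, and a filter in each cell line, chosen after seeing the data, also gave 6 pathway genes. In the line fit, no filter gave 5433 genes in place of 8654, 3 of the 8 in place of 5 and 17 pathway genes in place of 33.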
